A study of Homo sapiens with 34 samples.

Results

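WT1, TCF21, BNC1, UPK3B, UPK1B, MSLN, LRRN4 and SEMA3D are genes known from the epicardium, the cell sheet that covers the heart, or from mesothelium, the related lining of the body cavities. These 8 genes were taken by name from the 23189 gene symbols of an RNA-seq count table, each as the RefSeq transcript row with the largest total, and they were chosen with earlier results of these data known. RNA had been sequenced from H1 cells, an established line of human embryonic stem cells (ESCs), at days 0, 2, 6 and 10 of directed differentiation toward cardiomyocytes (CMs). The cells had received the GSK3β inhibitor CHIR99021 for the first day, the Wnt inhibitor IWP2 on days 2 through 5 and insulin from day 7. The series asks how expression changes when the transcription factors NKX2-5, ZEB2 or ZNF503 are depleted.

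NKX2-5 shRNA, ZEB2 shRNA and ZNF503 shRNA cells carried a lentiviral short hairpin RNA against the named gene and had been selected with puromycin. For each gene the vector with the best knockdown by real-time PCR had been kept, so each knockdown rests on 1 hairpin. The cells called WT were not untouched: according to the methods of the study they had been infected with an shRNA against GFP or with empty vector. All 4 lines were sampled at days 0, 2 and 6, and the WT, NKX2-5 shRNA and ZEB2 shRNA lines at day 10, which gave 15 groups of 2 libraries. Day 10 of ZNF503 shRNA cells was not analysed here. The series describes the libraries of a group as biological replicates without saying what was separate between them, so p-values measure the spread between these libraries, which may be partly technical. All comparisons with WT at 1 day share the same 2 WT libraries.

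The epicardium arises from the proepicardium, a mesothelial outgrowth next to the embryonic heart and liver. It supplies cardiac fibroblasts and vascular smooth muscle after its cells have undergone an epithelial-to-mesenchymal transition. WT1 is a zinc-finger transcription factor of epicardium and mesothelium that is also made in kidney and gonad, and TCF21 is a bHLH transcription factor of epicardial progenitors that give rise to fibroblasts. BNC1 encodes basonuclin 1, a zinc-finger protein found in keratinocytes, germ cells and mesothelium. UPK3B and UPK1B are uroplakins, membrane proteins of the urinary tract lining that mesothelial cells also make. MSLN encodes mesothelin, a surface protein by which mesothelium is commonly recognised, and LRRN4 a membrane protein with leucine-rich repeats. SEMA3D is a secreted semaphorin that signals through neuropilin and plexin receptors and is made by epicardial cells as well as by other tissues.

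The members were read at very different depths. SEMA3D and UPK3B held more than 3 counts in all 30 libraries, LRRN4 in 29, TCF21 in 25, UPK1B in 24, BNC1 in 23, MSLN in 19 and WT1 in 12. Only BNC1, LRRN4 and SEMA3D exceeded 10 CPM, the depth-normalised count, for which library sizes were scaled by TMM, in any library, and TCF21 reached 9.68 CPM. The other members stayed low: the highest library held 2.5 CPM of WT1, 1.48 CPM of MSLN, 3.92 CPM of UPK3B and 1.29 CPM of UPK1B. Further epicardial or mesothelial genes read beside the members were mixed. ALDH1A2, which encodes the retinoic acid enzyme of epicardium, did not exceed 1.96 CPM in any library of day 6 or day 10. TBX18, BNC2, KRT7 and MUC16 reached higher levels in some groups of day 10, which are given below. No group held WT1, MSLN and UPK1B together at more than a few CPM, so the data name no group as epicardium or mesothelium, and the 8 genes are described one by one. In a bulk sample, fewer cells of a type and less RNA per cell cannot be told apart.

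Total counts ran from 9189943 to 90814577 per library, with a median of 32191176. A limit of 3 counts corresponded to 0.033 to 0.0774 CPM in libraries of day 0, to 0.0341 to 0.205 CPM in those of day 2, to 0.0488 to 0.217 CPM in those of day 6 and to 0.102 to 0.326 CPM in those of day 10. Of the targeted genes, NKX2-5 stood at 0.761 to 0.993 CPM in NKX2-5 shRNA cells at day 6 against 50.4 to 84.2 CPM in WT cells. ZNF503 stood at 0.611 to 0.648 CPM in its knockdown against 8.71 to 9.33 CPM. ZEB2 was reduced less, to 54.6 to 57.1 CPM against 94.1 to 96.8 CPM at day 6 (log2 fold change -0.77, adjusted p = 0.00136), and at day 10 to 54.9 to 55 CPM against 105 to 117 CPM (-1.02, adjusted p = 0.0793). NKX2-5 was also low in ZNF503 shRNA cells at day 6, and ZNF503 in NKX2-5 shRNA cells. ZEB2 at day 6 was below WT in ZNF503 shRNA cells (-3.01, adjusted p = 8e-09, edgeR's quasi-likelihood test) and NKX2-5 shRNA cells (-2.22, 4.69e-08). These fold changes were larger than in its own knockdown. In NKX2-5 shRNA cells ZEB2 was already lower at day 2 (-2.03, 9.39e-06) but not at day 10 (-0.09, 0.848). NKX2-5 was lower in ZEB2 shRNA cells at day 6 (-0.89, 0.0198) and day 10 (-2.18, 0.0359). The 2 NKX2-5 shRNA libraries of day 10 stood apart from each other, with 11.3% of 17004 genes differing by more than 2-fold, against at most 2.73% in the other groups.

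For BNC1, TCF21 and SEMA3D a RefSeq promoter directly adjoined the annotated gene. These sequences are shown because BNC1 and TCF21 moved together across the groups and SEMA3D did not. Each is the 250 bases before the start, taken from RefSeq sequences of build GRCh38.p14 and found by exact match in GRCh37, whose coordinates are given. Capitals mark the letters AGATAA, bound by GATA factors, which occur in 9.17% of 35116 promoters of this length. The letters CACCTG of the E-box bound by ZEB factors occur in 17.5%, and TNAAGTG, bound by NKX2-5, in 8.73%, with both strands searched in each case and no match overlapping another. TCF21 holds AGATAA at position -31, and the BNC1 and SEMA3D promoters shown hold none of the 3 motifs. This says only that these letters are not in these windows. Other RefSeq promoters of members, which did not directly adjoin the annotated gene, are not shown. Among them, a UPK1B promoter holds CACCTG at position -21 and a WT1 promoter holds TNAAGTG at position -31. The BNC1 promoter is at chr15:83953417-83953666 on the minus strand with a GC content of 81.6%, and no annotated exon overlaps it. The TCF21 promoter is at chr6:134210001-134210250 on the plus strand with a GC content of 52.8%, and an exon of TARID, transcribed from the opposite strand, overlaps it. The SEMA3D promoter is at chr7:84816373-84816622 on the minus strand with a GC content of 57.6%.
BNC1: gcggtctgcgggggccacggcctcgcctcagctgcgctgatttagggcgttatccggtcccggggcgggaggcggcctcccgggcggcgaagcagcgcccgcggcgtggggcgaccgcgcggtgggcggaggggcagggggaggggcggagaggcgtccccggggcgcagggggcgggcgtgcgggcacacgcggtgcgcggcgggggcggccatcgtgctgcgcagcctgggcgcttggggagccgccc
TCF21: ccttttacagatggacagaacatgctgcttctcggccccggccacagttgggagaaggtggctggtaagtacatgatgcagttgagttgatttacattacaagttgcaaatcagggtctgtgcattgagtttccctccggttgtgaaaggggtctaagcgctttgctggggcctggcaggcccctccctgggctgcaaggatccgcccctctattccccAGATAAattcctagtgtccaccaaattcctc
SEMA3D: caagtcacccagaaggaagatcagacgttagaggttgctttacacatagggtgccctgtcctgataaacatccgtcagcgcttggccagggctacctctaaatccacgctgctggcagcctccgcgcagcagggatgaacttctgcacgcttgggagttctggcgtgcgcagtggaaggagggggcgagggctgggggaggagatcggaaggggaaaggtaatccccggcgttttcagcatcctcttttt

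In the GRCh37 annotation BNC1 spans chr15:83924636-83953416, TCF21 chr6:134210251-134216691, SEMA3D chr7:84624869-84816372, LRRN4 chr20:6021192-6034706, WT1 chr11:32409321-32457110, UPK3B chr7:76139842-76145839, UPK1B chr3:118892364-118923990 and MSLN chr16:810734-818865. WT1-AS overlaps WT1 on the opposite strand, TARID overlaps TCF21, and an antisense gene without a symbol overlaps BNC1. The library kit keeps strand, but the strand setting of the counting is not given in the sources used here, so reads of these pairs may not have been told apart. WT1-AS did not exceed 1.04 CPM in any library of day 6 or day 10. UPK3B has a paralog, UPK3BL1, which was read at 7.79 to 59.0 CPM, and its own values are uncertain as far as reads matched both.

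In WT cells, LRRN4 was first read at more than 1 CPM at day 2, BNC1 and TCF21 at day 6, and WT1 only at day 10. LRRN4 started from 0.374 and 0.0523 CPM in the libraries of day 0, reached 1.38 and 1.66 CPM on day 2 and 48.0 and 34.5 CPM on day 6, and held 24.8 and 50.5 CPM on day 10. BNC1 started from 0.213 and 0 CPM, was read at 0.0643 and 0 CPM on day 2, and then held 11.9 and 13.1 CPM on day 6 and 7.63 and 7.21 CPM on day 10. TCF21 went from 0.294 and 0.157 CPM through 0.257 and 0 CPM on day 2 to 2.64 and 2.91 CPM on day 6 and 2.84 and 1.72 CPM on day 10. For all 3 genes the libraries of days 6 and 10 lay above those of days 0 and 2.

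From day 0 to day 2 in WT cells, LRRN4 rose (log2 fold change 2.84 ± 0.69 SE, adjusted p = 0.00766). SEMA3D rose by 1.31 ± 0.19 on the log2 scale (adjusted p = 0.000346), from 8.24 and 9.68 CPM to 24.9 and 17.8 CPM. UPK1B went from 0.24 and 0.262 CPM to 0.74 and 1.29 CPM (2.00 ± 0.71, adjusted p = 0.0433), and it did not pass when any 1 of the 4 libraries was left out (adjusted p 0.0719 to 0.205), without a filter on low counts (0.065) or under DESeq2 (0.134). Throughout, passing means an adjusted p under 5% FDR in edgeR's quasi-likelihood test. Called means past the thresholds of the study for fold and FDR, which are 2-fold and 10% at day 0, 4-fold and 10% at day 2, and 8-fold and 1% at days 6 and 10. Changes over time took those of the later day. Of the 7 members tested from day 0 to day 2, 3 passed and LRRN4 was called, against 44.1% and 8.36% of all genes tested.

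From day 2 to day 6 in WT cells, 4 of 7 members tested passed and all 4 were called, against 49.8% and 8.35% of all genes. BNC1 rose at least 89.2-fold, counted against the limit of 3 counts, since neither library of day 2 exceeded it (adjusted p = 7.34e-06). LRRN4 rose by 4.77 ± 0.45 on the log2 scale (adjusted p = 1.28e-05), and TCF21 by 4.06 ± 0.68 (adjusted p = 0.000678). UPK1B went the other way: it fell to 0.173 and 0.0481 CPM (-3.31 ± 0.84, adjusted p = 0.00837), although without replicate 2 of day 2 or of day 6 it did not pass (adjusted p = 0.0511 and 0.0798). The uroplakin was thus highest in WT cells at day 2, when BNC1 and TCF21 were at or near the limit.

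From day 6 to day 10 in WT cells, 3 of 7 members tested passed and none was called, against 57.5% and 3.94% of all genes. SEMA3D rose from 19.5 and 23.7 CPM to 50.4 and 46.4 CPM (1.20 ± 0.18, adjusted p = 0.000326). WT1 rose from 0.0867 and 0.481 CPM to 2.01 and 1.72 CPM (2.6 ± 0.74, adjusted p = 0.0122), that is, to 39 and 16 counts. UPK3B rose from 0.563 and 0.77 CPM to 1.49 and 2.47 CPM (1.53 ± 0.44, adjusted p = 0.0133). WT1 did not pass without replicate 1 of day 6 or replicate 3 of day 10 (adjusted p = 0.0539 and 0.0514) or in 1 fit of all libraries (0.0622), and UPK3B did not without replicate 1 of day 6 or replicate 4 of day 10 (0.0583 and 0.0772). MSLN was too low for the filter in WT cells, where it did not exceed 0.0785, 0.289, 0.265 and 0.361 CPM on days 0, 2, 6 and 10.

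**Figure D1:**
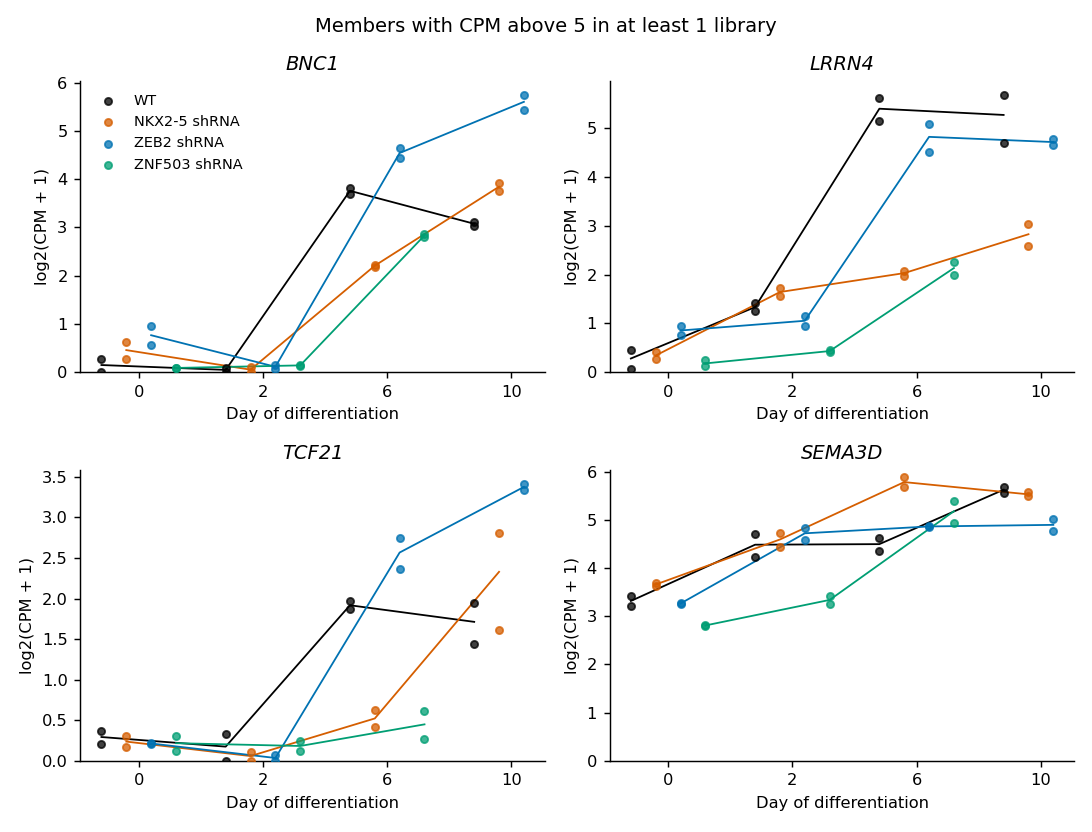
BNC1, LRRN4, TCF21 and SEMA3D by day of differentiation (x axis, days) as log2(CPM + 1) (y axis), with 1 point per library and lines joining the group means of WT, NKX2-5 shRNA, ZEB2 shRNA and ZNF503 shRNA cells. LRRN4 at day 6 stands at 21.8 to 48.0 CPM in WT and ZEB2 shRNA cells and at 2.94 to 3.82 CPM in the other lines, whereas SEMA3D is highest in NKX2-5 shRNA cells.

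At day 6, LRRN4, TCF21 and BNC1 were lower and SEMA3D was higher than in WT when NKX2-5 or ZNF503 was depleted. With depletion of ZEB2, BNC1 alone among the members tested passed, and it was higher. LRRN4 held 2.94 and 3.22 CPM in NKX2-5 shRNA cells and 3.82 and 2.96 CPM in ZNF503 shRNA cells, against 48.0 and 34.5 CPM in WT. Its log2 fold change was -3.74 ± 0.25 in NKX2-5 shRNA cells (adjusted p = 1.56e-07) and -3.62 ± 0.25 in ZNF503 shRNA cells (adjusted p = 3.34e-07). Neither knockdown overlapped the WT libraries, and LRRN4 was the 1 member called in each of these comparisons.

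TCF21 held 0.331 and 0.541 CPM in NKX2-5 shRNA cells and 0.204 and 0.527 CPM in ZNF503 shRNA cells, against 2.64 and 2.91 CPM in WT at day 6. The transcription factor gene changed by -2.61 ± 0.40 on the log2 scale with NKX2-5 depletion (adjusted p = 0.000166) and by -2.87 ± 0.45 with ZNF503 depletion (adjusted p = 0.000187). BNC1 held 3.68 and 3.55 CPM in NKX2-5 shRNA cells and 6.00 and 6.24 CPM in ZNF503 shRNA cells, against 11.9 and 13.1 CPM in WT. It changed by -1.80 ± 0.19 (adjusted p = 6.82e-06) and by -1.04 ± 0.18 (adjusted p = 0.000522), respectively. For both genes all knockdown libraries lay below both WT libraries, with log2 fold changes under the 8-fold threshold of the study.

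SEMA3D, the secreted ligand of the set, went the opposite way at day 6. It held 58.1 and 50 CPM in NKX2-5 shRNA cells and 29.5 and 41.0 CPM in ZNF503 shRNA cells, against 19.5 and 23.7 CPM in WT. It rose by 1.32 ± 0.17 (adjusted p = 4.8e-05) and by 0.70 ± 0.17 (adjusted p = 0.00449). UPK3B was also higher in ZNF503 shRNA cells, at 2.39 and 1.05 CPM against 0.563 and 0.77 CPM (1.31 ± 0.47, adjusted p = 0.0321), which rested on replicate 1: without it the log2 fold change was 0.62 (adjusted p = 0.324). Without replicate 1 or 2 of WT cells UPK3B did not pass either (adjusted p = 0.127 and 0.0612). In ZEB2 shRNA cells BNC1 held 20.7 and 23.8 CPM, above both WT libraries (0.83 ± 0.18, adjusted p = 0.00866), and it did not pass without replicate 2 of ZEB2 shRNA cells or replicate 1 of WT cells (adjusted p = 0.0929 and 0.0685) or in 1 fit of all libraries (0.153). LRRN4 at 32.8 and 21.8 CPM and SEMA3D at 28.3 and 27.9 CPM in these cells did not pass, and neither did TCF21 at 5.73 and 4.13 CPM, although its libraries did not overlap those of WT.

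Of 7 members tested at day 6, 4 passed in NKX2-5 shRNA cells, against 49.1% of all genes, 5 in ZNF503 shRNA cells, against 55.7%, and 1 in ZEB2 shRNA cells, against 11%. The shares of all genes called were 4.71%, 3.91% and 0.462%, with 1, 1 and 0 members called. In ZEB2 shRNA cells 4 members had an unadjusted p under 0.05. These member counts are near the shares for all genes and single out no line. The cell type markers differed widely between these same groups. The summed level of 5 CM genes (TNNT2, MYH6, MYH7, MYL7, ACTN2) ran from 7894 to 9731 CPM in WT cells, from 4218 to 4664 CPM in ZEB2 shRNA cells, from 149 to 199 CPM in ZNF503 shRNA cells and from 35.6 to 44.8 CPM in NKX2-5 shRNA cells. The sum of 5 hepatic genes (AFP, ALB, APOA2, TTR, FABP1) ran from 309 to 629 CPM in WT, 267 to 386 CPM in ZEB2 shRNA, 2194 to 2342 CPM in ZNF503 shRNA and 3015 to 3112 CPM in NKX2-5 shRNA cells. LRRN4 was thus low in the groups where the CM sum was low, and the part of these cell types in the result was not tested.

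**Figure D2:**
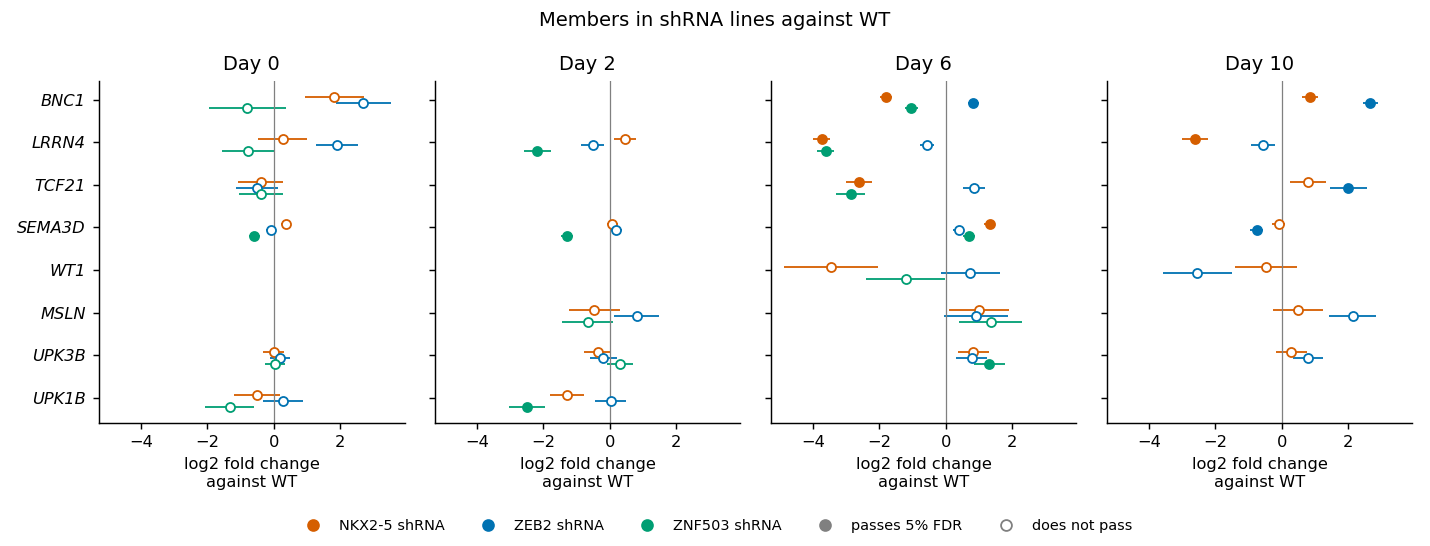
Log2 fold change against WT (x axis, with SE bars) of each tested member (y axis) at days 0, 2, 6 and 10 in NKX2-5 shRNA, ZEB2 shRNA and ZNF503 shRNA cells, where filled points pass 5% FDR and open points do not. LRRN4 lies at -3.74 and -3.62 in NKX2-5 and ZNF503 shRNA cells at day 6, and BNC1 reaches 2.67 in ZEB2 shRNA cells at day 10.

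At day 10, BNC1 and TCF21 were higher in ZEB2 shRNA cells than in WT, and SEMA3D was lower. BNC1 held 42.4 and 52.6 CPM in ZEB2 shRNA cells, its highest group, against 7.63 and 7.21 CPM in WT (2.67 ± 0.24, adjusted p = 0.00201). TCF21 held 9.08 and 9.68 CPM, also its highest group, against 2.84 and 1.72 CPM (2.00 ± 0.55, adjusted p = 0.0446). SEMA3D held 26.1 and 31.4 CPM against 50.4 and 46.4 CPM (-0.76 ± 0.20, adjusted p = 0.038). BNC1 passed without any 1 of the 4 libraries, whereas TCF21 (adjusted p 0.135 to 0.2) and SEMA3D (0.11 to 0.326) failed to pass when any 1 of them was left out.

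The low members at day 10 did not pass in ZEB2 shRNA cells in the fit of that day. MSLN held 1.48 and 1.24 CPM against 0.361 and 0.215 CPM in WT, so that both ZEB2 shRNA libraries lay above both WT libraries (2.14 ± 0.71, adjusted p = 0.0764). WT1 held 0.371 and 0.256 CPM against 2.01 and 1.72 CPM, the reverse order (-2.55 ± 1.04, adjusted p = 0.13), and it passed with the replicate number as a block (adjusted p = 0.00872), although the numbers were not found to pair the libraries. UPK3B held 3.92 and 2.82 CPM against 1.49 and 2.47 CPM. LRRN4 held 26.5 and 24.1 CPM against 24.8 and 50.5 CPM and overlapped WT. The group with the highest BNC1, TCF21, UPK3B and MSLN was thus not the group with the highest WT1.

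In NKX2-5 shRNA cells at day 10, LRRN4 held 4.96 and 7.23 CPM against 24.8 and 50.5 CPM in WT (-2.62 ± 0.39, adjusted p = 0.00205). BNC1 held 12.5 and 14.2 CPM against 7.63 and 7.21 CPM, so that it was now above WT (0.85 ± 0.23, adjusted p = 0.0214), and it did not pass without either WT library (adjusted p = 0.0758 and 0.0815). The 2 replicates disagreed on the low transcription factor genes. WT1 held 0.191 CPM in replicate 1 and 2.5 CPM in replicate 2, or 4 and 53 counts, and TCF21 held 2.05 and 6.00 CPM. Leaving out replicate 1 moved the log2 fold change of WT1 against WT to 0.41 (adjusted p = 0.539), and leaving out replicate 2 to -3.25 (adjusted p = 0.00922). SEMA3D, at 46.5 and 43.9 CPM, was no longer above WT.

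Of 7 members tested at day 10, 3 passed in ZEB2 shRNA cells, against 18.2% of all genes, and 2 in NKX2-5 shRNA cells, against 43.9%. None was called in either comparison, against 1.46% and 7.31% of all genes. In ZEB2 shRNA cells 5 members had an unadjusted p under 0.05. Fibroblast genes moved in the same direction as BNC1 in these groups of day 10, unlike in ZEB2 shRNA cells at day 6. The sum over 7 of them (POSTN, DCN, LUM, PDGFRA, COL1A1, COL3A1, THY1) ran from 850 to 1292 CPM in WT, from 3156 to 5538 CPM in NKX2-5 shRNA and from 5391 to 6216 CPM in ZEB2 shRNA cells. The CM sum ran from 11992 to 14914 CPM in WT, from 52.7 to 309 CPM in NKX2-5 shRNA and from 3409 to 5151 CPM in ZEB2 shRNA cells. The hepatic sum was highest in NKX2-5 shRNA cells, at 26949 to 38452 CPM, against 6414 to 7785 CPM in ZEB2 shRNA and 1465 to 3603 CPM in WT cells. The part of these cell types in the member values was not tested.

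**Figure D3:**
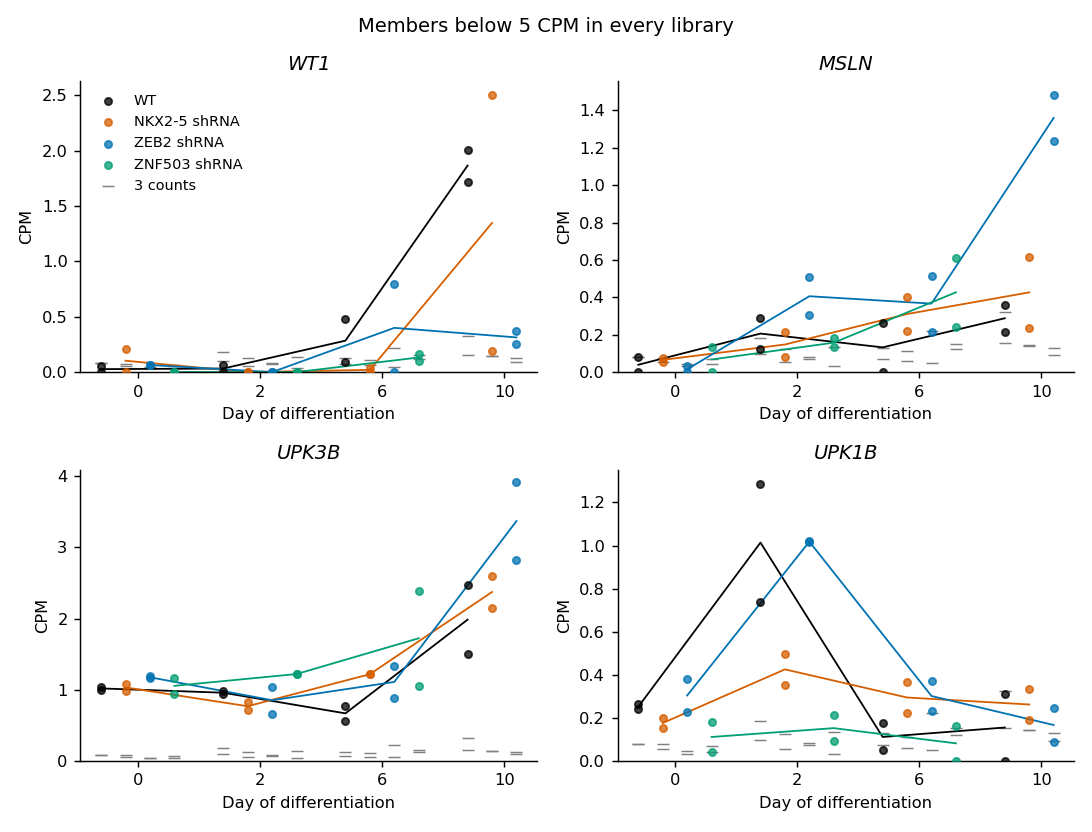
CPM (y axis) of WT1, MSLN, UPK3B and UPK1B by day of differentiation (x axis, days) in the 4 lines, with 1 point per library, lines through the group means and grey dashes at the level of 3 counts in a library. WT1 lies near or under the dashes at days 0 and 2. At day 6 replicate 1 of ZEB2 shRNA cells (0.799 CPM) and replicate 2 of WT cells (0.481 CPM) lie above them. At day 10 WT cells hold 2.01 and 1.72 CPM and the 2 NKX2-5 shRNA libraries 0.191 and 2.5 CPM.

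At day 0 no member other than SEMA3D and UPK3B reached 1 CPM in any library. SEMA3D held 11.3 and 11.9 CPM in NKX2-5 shRNA, 8.63 and 8.58 CPM in ZEB2 shRNA, 6.05 and 5.97 CPM in ZNF503 shRNA and 8.24 and 9.68 CPM in WT cells. UPK3B ran from 0.939 to 1.19 CPM over the 8 libraries. SEMA3D was lower in ZNF503 shRNA cells (-0.59 ± 0.15, adjusted p = 0.04), which did not pass without any 1 of the 4 libraries (adjusted p 0.132 to 0.296), in 1 fit of all libraries (0.111) or with a replicate block (0.07). BNC1 held 0.928 and 0.468 CPM in ZEB2 shRNA cells, or 83 and 31 counts, against 0.213 and 0 CPM in WT, and was called at the 10% FDR of that day (2.69 ± 0.83, adjusted p = 0.0973). It was lost without replicate 1 or 2 of ZEB2 shRNA cells or replicate 2 of WT cells (adjusted p = 0.338, 0.138 and 0.479), and with a replicate block (0.146). LRRN4 held 0.917 and 0.695 CPM in ZEB2 shRNA cells, or 82 and 46 counts, against 0.374 and 0.0523 CPM in WT, so that both libraries lay above WT, and it did not pass (1.90 ± 0.64, adjusted p = 0.127).

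Of 6 members tested at day 0, none passed in NKX2-5 shRNA cells (1 at an unadjusted p under 0.05), against 15.9% of all genes, none in ZEB2 shRNA cells (2 at an unadjusted p under 0.05), against 3.93%, and SEMA3D in ZNF503 shRNA cells, against 7.53%. The shares of all genes called were 4.03%, 2.2% and 2.56%, with 0, 1 and 0 members called. WT1 and MSLN were too low to be tested at this day.

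At day 2, the ZNF503 shRNA line was the 1 line in which members passed. LRRN4 held 0.337 and 0.36 CPM in ZNF503 shRNA cells against 1.38 and 1.66 CPM in WT (-2.18 ± 0.40, adjusted p = 0.000932). UPK1B held 0.213 and 0.09 CPM against 0.74 and 1.29 CPM (-2.49 ± 0.54, adjusted p = 0.00343). SEMA3D held 9.63 and 8.59 CPM against 24.9 and 17.8 CPM (-1.29 ± 0.17, adjusted p = 6.95e-05). Of the 3 genes none overlapped WT, and LRRN4 and UPK1B were called. Markers of other cell types differed between the same libraries. The sum of the 7 genes listed as fibroblast genes was lower, at 92.1 to 92.6 CPM against 438 to 439 CPM in WT. It does not show fibroblasts at this day. The group mean of LUM, 1 of the 7, was 0 CPM in WT and 0.0112 CPM in ZNF503 shRNA cells. In WT cells at day 0 the same sum already ran from 217 to 224 CPM. The sum of 4 smooth muscle genes (ACTA2, MYH11, TAGLN, CNN1) was higher, at 111 to 131 CPM against 43.6 to 48.2 CPM. The sum of 4 pluripotency genes (POU5F1, NANOG, LIN28A, DPPA4) was also higher, at 2786 to 2859 CPM against 2261 to 2270 CPM. The part of the mix of cells in the day 2 values was not tested.

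In the other lines at day 2, LRRN4 held 1.93 and 2.31 CPM in NKX2-5 shRNA cells and 0.937 and 1.21 CPM in ZEB2 shRNA cells. UPK1B held 0.354 and 0.495 CPM and 1.02 and 1.02 CPM, respectively. SEMA3D held 25.7 and 20.6 CPM and 23.1 and 27.7 CPM, which overlapped WT. ZNF503 itself was still low at this day, with 0.999 to 1.75 CPM in its knockdown and 1.09 to 1.96 CPM in WT. A knockdown was thus not visible where these members differed. Nor was it shown in the other lines at day 2. NKX2-5 was too low to be tested, and ZEB2 in ZEB2 shRNA cells did not pass (-0.63, adjusted p = 0.185, edgeR's quasi-likelihood test). Of 5 members tested, 3 passed in ZNF503 shRNA cells, against 26.9% of all genes, with 2 called, against 2.8%. None passed in NKX2-5 shRNA cells (1 at an unadjusted p under 0.05), against 26.7%, or in ZEB2 shRNA cells (0 at an unadjusted p under 0.05), against 0.49%, and none was called, against 1.19% and 0.133%. WT1, TCF21 and BNC1 were not tested, as no library of day 2 exceeded 0.257 CPM of any of them.

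In the knockdown lines too, BNC1 rose from day 2 to day 6. It rose by 6.15 ± 0.69 on the log2 scale in NKX2-5 shRNA cells (adjusted p = 0.000287), by 8.10 ± 0.39 in ZEB2 shRNA cells (adjusted p = 4.79e-10) and by 5.80 ± 0.43 in ZNF503 shRNA cells (adjusted p = 2.05e-08). The gene therefore came on in every line, with levels at day 6 from 3.55 CPM in NKX2-5 shRNA cells to 23.8 CPM in ZEB2 shRNA cells. LRRN4 rose by 4.66 ± 0.26 in ZEB2 shRNA cells (adjusted p = 2.29e-09) and by 3.28 ± 0.45 in ZNF503 shRNA cells (adjusted p = 1.46e-05), and did not pass in NKX2-5 shRNA cells, where it went from 1.93 and 2.31 CPM to 2.94 and 3.22 CPM.

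TCF21 rose at least 63.5-fold from day 2 to day 6 in ZEB2 shRNA cells (adjusted p = 3.33e-08) and at least 4.93-fold in NKX2-5 shRNA cells (adjusted p = 0.0287), each against the limit of 3 counts. The NKX2-5 value did not pass without replicate 1 of day 2 (adjusted p = 0.189) or without either library of day 6 (0.0538 and 0.122). SEMA3D rose by 1.21 ± 0.16 in NKX2-5 shRNA cells (adjusted p = 0.000626) and by 1.93 ± 0.18 in ZNF503 shRNA cells (adjusted p = 3.07e-07). UPK1B fell by 1.91 ± 0.57 in ZEB2 shRNA cells (adjusted p = 0.0125), though not without replicate 1 of day 6 (adjusted p = 0.168) or under DESeq2 (0.085). WT1 was called in ZEB2 shRNA cells with a rise of at least 5.14-fold (adjusted p = 0.00347), but all of it lay in replicate 1 of day 6, with 48 counts against 0 in replicate 2. Without that library the adjusted p was 1.

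Members passing from day 2 to day 6 numbered 3 of 7 tested in NKX2-5 shRNA cells, against 47.9% of all genes, 5 of 8 in ZEB2 shRNA cells, against 48.7%, and 3 of 4 in ZNF503 shRNA cells, against 65.9%. Those called numbered 1, 4 and 2, against 9.04%, 8.14% and 9.82% of all genes. From day 6 to day 10 in NKX2-5 shRNA cells, TCF21 rose by 3.12 ± 0.80 (adjusted p = 0.0138) and BNC1 by 1.84 ± 0.46 (adjusted p = 0.0128), and neither passed without 1 of the libraries of day 6 (adjusted p 0.0616 to 0.0916). In ZEB2 shRNA cells BNC1 rose by 1.09 ± 0.21 (adjusted p = 0.000534), UPK3B by 1.51 ± 0.36 (adjusted p = 0.00218), TCF21 by 0.88 ± 0.27 (adjusted p = 0.0119) and MSLN by 2.16 ± 0.63 (adjusted p = 0.00803). MSLN, the surface marker of mesothelium, went from 0.216 and 0.516 CPM to 1.48 and 1.24 CPM, and it did not pass without replicate 1 of day 6 (1.39, adjusted p = 0.152), without replicate 3 of day 10 (adjusted p = 0.0543) or in 1 fit of all libraries (0.0516). TCF21 did not without replicate 2 of day 6 or replicate 4 of day 10 (adjusted p = 0.0814 and 0.0626) or in that fit (0.136). From day 6 to day 10, 2 of 7 members tested passed in NKX2-5 shRNA cells, against 49.1% of all genes, and 4 of 8 in ZEB2 shRNA cells, against 63.3%, with none called, against 5.53% and 4.1%.

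Whether a change over time differed between a knockdown and WT was tested as an interaction over all 30 libraries. From day 2 to day 6, LRRN4 rose less in NKX2-5 shRNA cells than in WT (difference in log2 fold change -4.21 ± 0.54, adjusted p = 3.14e-06). SEMA3D rose more in NKX2-5 shRNA cells (1.23 ± 0.25, adjusted p = 0.000529) and in ZNF503 shRNA cells (1.95 ± 0.25, adjusted p = 3.01e-06) than in WT, where it held 24.9 and 17.8 CPM at day 2 and 19.5 and 23.7 CPM at day 6. For ZNF503 the day 2 level of SEMA3D was itself the lower one. Of the 8 members 2 passed for NKX2-5, against 36.2% of all genes, 1 for ZNF503, against 38.6%, and none for ZEB2 (1 at an unadjusted p under 0.05), against 2.62%. LRRN4 was called for NKX2-5, against 3.44% of all genes, and no member was called for ZNF503, against 3.35%, or for ZEB2, against 0.141%.

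From day 6 to day 10 the interaction was positive for BNC1 in both knockdowns measured. BNC1 in NKX2-5 shRNA cells went from 3.68 and 3.55 CPM to 12.5 and 14.2 CPM, whereas WT went from 11.9 and 13.1 CPM to 7.63 and 7.21 CPM (2.63 ± 0.50, adjusted p = 0.000334). The ZEB2 shRNA value was 1.84 ± 0.49 (adjusted p = 0.0128), and it did not pass without replicate 1 of ZEB2 shRNA cells at day 6, replicate 4 of them at day 10 or replicate 2 of WT cells at day 6 (adjusted p = 0.0594, 0.0601 and 0.05). TCF21 in NKX2-5 shRNA cells differed from WT by 3.40 ± 0.82 (adjusted p = 0.00272). SEMA3D went the other way in NKX2-5 shRNA cells (-1.43 ± 0.25, adjusted p = 0.000118) and in ZEB2 shRNA cells (-1.14 ± 0.25, adjusted p = 0.00307), and it rose in WT over these days but did not pass in either line. Of the 8 members 3 passed for NKX2-5, against 36% of all genes, and 2 for ZEB2, against 15.8%. TCF21 was called for NKX2-5, against 4.12%, and no member for ZEB2, against 1.18%. Both sets of values share the WT libraries.

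The knockdown lines were also compared with each other. At day 6 ZEB2 shRNA cells stood above NKX2-5 shRNA cells in TCF21 (NKX2-5 minus ZEB2 -3.46 ± 0.40, adjusted p = 1.83e-05), BNC1 (-2.63 ± 0.19, adjusted p = 3.27e-07) and LRRN4 (-3.16 ± 0.24, adjusted p = 6.1e-07), and below them in SEMA3D (0.93 ± 0.17, adjusted p = 0.000809). WT1 passed as well, with NKX2-5 shRNA cells at least 4.69-fold lower (adjusted p = 0.0204), which again rested on replicate 1 of ZEB2 shRNA cells: without it the log2 fold change was 2.76 (adjusted p = 0.687). It did not pass without either NKX2-5 shRNA library (adjusted p = 0.08 and 0.0643) or under DESeq2 (0.0558). ZEB2 shRNA cells stood above ZNF503 shRNA cells in TCF21 (3.72 ± 0.44, adjusted p = 2.65e-05), BNC1 (1.87 ± 0.19, adjusted p = 7.04e-06) and LRRN4 (3.04 ± 0.25, adjusted p = 1.5e-06).

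NKX2-5 and ZNF503 shRNA cells at day 6 were closer to each other. BNC1 was lower (-0.77 ± 0.19, adjusted p = 0.0207) and SEMA3D higher (0.61 ± 0.17, adjusted p = 0.0321) in NKX2-5 than in ZNF503 shRNA cells, and neither passed without replicate 1 of ZNF503 shRNA cells or either NKX2-5 shRNA library (adjusted p 0.0633 to 0.226), nor BNC1 in 1 fit of all libraries (0.18). At day 10 NKX2-5 shRNA cells stood below ZEB2 shRNA cells in BNC1 (-1.82 ± 0.23, adjusted p = 0.00374) and LRRN4 (-2.04 ± 0.38, adjusted p = 0.0126), neither of which passed without replicate 4 of ZEB2 shRNA cells (adjusted p = 0.0572 and 0.0651), nor LRRN4 without replicate 3 (0.0834). Of 7 members tested in each comparison, 5, 2 and 3 passed at day 6 between NKX2-5 and ZEB2, NKX2-5 and ZNF503, and ZEB2 and ZNF503 shRNA cells, against 44.4%, 14.7% and 49.2% of all genes. At day 10, 2 passed, against 21.3%. Those called at day 6 numbered 2 (TCF21 and LRRN4), 0 and 2 (TCF21 and LRRN4), against 4.59%, 0.395% and 3.48% of all genes, and none was called at day 10, against 1.95%.

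A further 18 genes linked to epicardium or mesothelium were read beside the members, a list chosen with earlier results of these data known. The shares and medians below thus describe the list and are no test of it. They cover only genes past the filter on low counts, which a gene could pass through 1 group where it was high. At day 10, 11 of 16 tested passed in NKX2-5 shRNA cells, 9 of them higher than in WT, against 43.9% of all genes passing, with a median log2 fold change of 2.46 against 0.03 over all genes. In ZEB2 shRNA cells 7 of 16 passed, 5 of them higher, against 18.2% of all genes, with a median of 1.31 against 0.03. At day 6, 8 of 14 tested passed in NKX2-5 shRNA cells (4 higher), against 49.1% of all genes. In ZEB2 shRNA cells 6 passed (4 higher), against 11%, and in ZNF503 shRNA cells 6 (4 higher), against 55.7%. The medians were 0.21, 0.46 and 0.34, respectively. The other passing genes were lower than in WT. Of these, no value of day 6 is given below, and at day 10 only TBX18 is given. The genes named below thus come mostly from the higher side.

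BNC2, the relative of BNC1, followed it at day 10, with 72.8 and 84.4 CPM in ZEB2 shRNA cells (3.78 ± 0.33, adjusted p = 0.00201) and 30.0 and 47.4 CPM in NKX2-5 shRNA cells (2.77 ± 0.32, adjusted p = 0.000835) against 6.75 and 4.41 CPM in WT. KRT7, a keratin of simple epithelia, held 52.6 and 66.2 CPM in ZEB2 shRNA cells at day 6 against 8.06 and 11.8 CPM in WT (2.57 ± 0.20, adjusted p = 7.14e-06). At day 10 KRT7 held 29.9 and 22.5 CPM against 2.58 and 1.51 CPM (3.63 ± 0.35, adjusted p = 0.00222). KRT19, another simple-epithelium keratin that is also made by endoderm, was higher in NKX2-5 shRNA cells (1.64 ± 0.13, adjusted p = 8.54e-07) and ZNF503 shRNA cells (1.59 ± 0.13, adjusted p = 1.3e-06) at day 6.

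TBX18, a transcription factor gene of the proepicardium, went against these genes. It held 28.9 and 9.89 CPM in WT cells at day 10, 0.865 and 2.09 CPM in ZEB2 shRNA cells (-3.75 ± 0.95, adjusted p = 0.0348) and 2.29 and 14.4 CPM in NKX2-5 shRNA cells. Both WT libraries of day 10 thus lay above both ZEB2 shRNA libraries in TBX18 and in WT1, which passed with a replicate block only, and below them in BNC1, TCF21, BNC2 and KRT7. MUC16, a mucin of mesothelium and of other epithelia, held 197 and 33.8 CPM in NKX2-5 shRNA cells at day 10 against 0.928 and 0.215 CPM in WT (7.45 ± 1.01, adjusted p = 0.00152), and 7.66 and 7.38 CPM in ZEB2 shRNA cells (3.49 ± 0.96, adjusted p = 0.0443). RSPO1 held 0.572 and 14.4 CPM in the 2 NKX2-5 shRNA libraries of day 10, 10.5 and 18.7 CPM in ZEB2 shRNA cells and 2.47 and 0.215 CPM in WT, so that WT1, TBX18 and RSPO1 were all higher in replicate 2 of NKX2-5 shRNA cells and MUC16 and PTGIS (120 and 16.4 CPM) in replicate 1. LHX9 did not exceed a group mean of 0.0405 CPM.

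**Figure D4:**
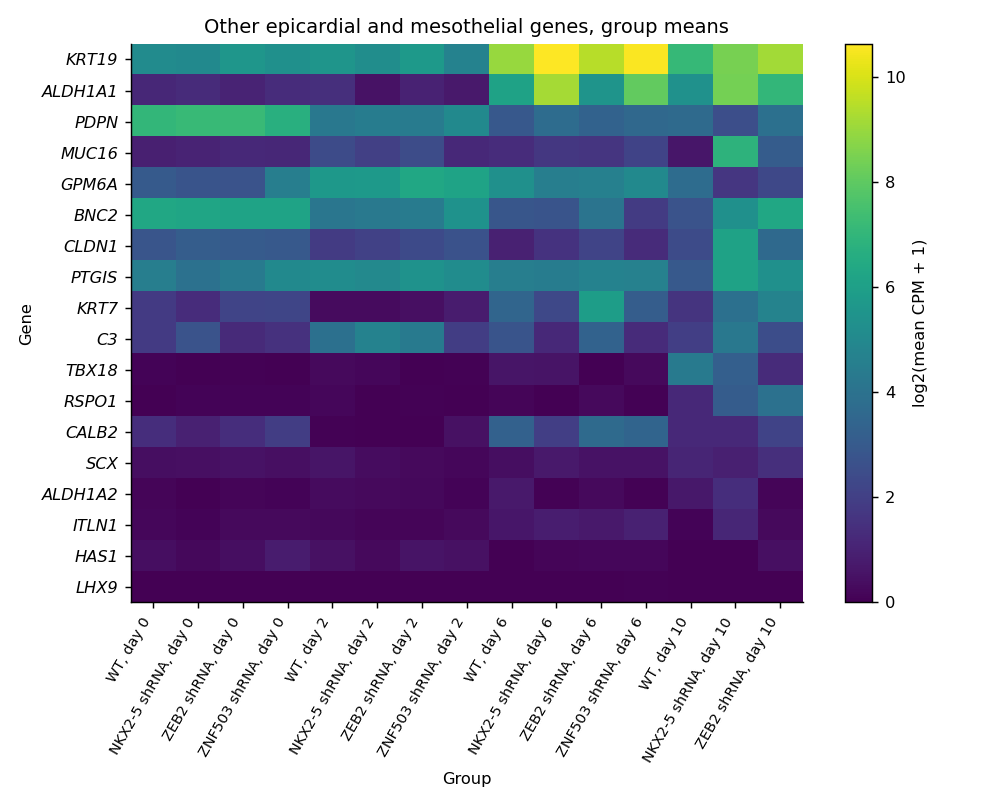
Heat map of log2(mean CPM + 1) for the 18 further epicardial and mesothelial genes (rows) in the 15 groups of line and day (columns), each a mean of 2 libraries. KRT19 is read in every group of day 6, BNC2 is highest in ZEB2 shRNA cells at day 10, and TBX18 is highest in WT cells at day 10.

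**Figure D5:**
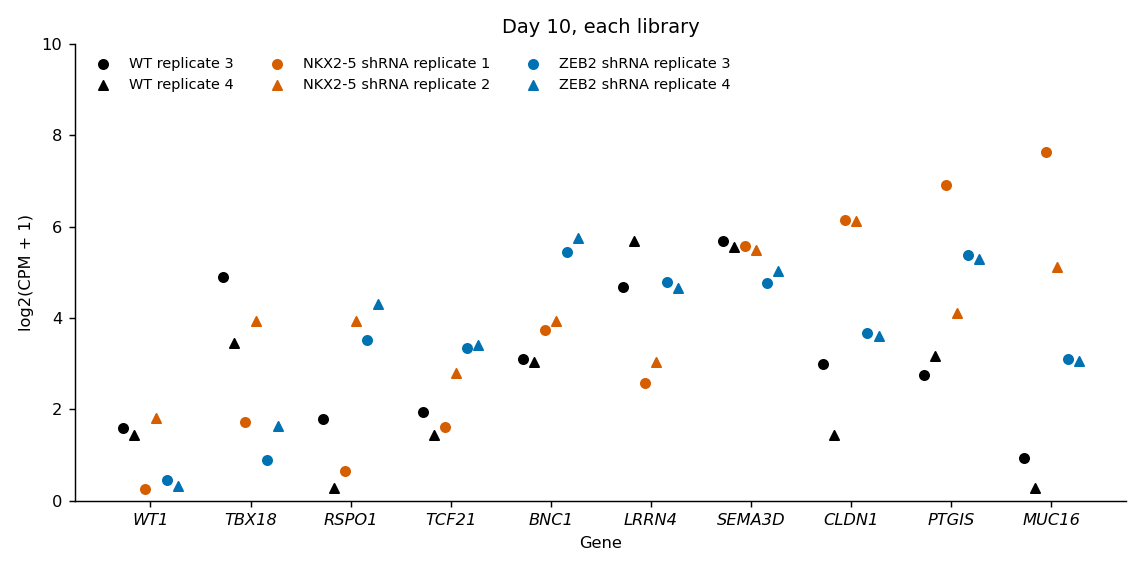
Log2(CPM + 1) (y axis) of 10 genes (x axis) in the 6 libraries of day 10 (WT, NKX2-5 shRNA and ZEB2 shRNA cells, 2 libraries each), with genes other than the 8 members chosen after their values were seen. The 2 NKX2-5 shRNA libraries differ in WT1 (0.191 and 2.5 CPM) and RSPO1 (0.572 and 14.4 CPM), while BNC1 holds 12.5 and 14.2 CPM.

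Ordered by group mean, BNC1 was highest in ZEB2 shRNA cells at day 10 (47.5 CPM), followed by ZEB2 shRNA at day 6 (22.3), NKX2-5 shRNA at day 10 (13.3), WT at day 6 (12.5) and WT at day 10 (7.42). In that order only NKX2-5 shRNA at day 10 and WT at day 6 overlapped between neighbours. TCF21 began with ZEB2 shRNA at day 10 (9.38 CPM), which did not overlap the next group, ZEB2 shRNA at day 6 (4.93 CPM), whereas the following groups, NKX2-5 shRNA at day 10 (4.03), WT at day 6 (2.78) and WT at day 10 (2.28), overlapped. LRRN4 began with WT at day 6 (41.2 CPM), WT at day 10 (37.7), ZEB2 shRNA at day 6 (27.3) and ZEB2 shRNA at day 10 (25.3), all overlapping their neighbours, and then dropped without overlap to NKX2-5 shRNA at day 10 (6.10). SEMA3D was highest in NKX2-5 shRNA at day 6 (54.1 CPM), which overlapped WT at day 10 (48.4).

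For the low members, MSLN stood apart in ZEB2 shRNA cells at day 10 (1.36 CPM), above the next group, ZNF503 shRNA at day 6 (0.427), without overlap, and its other neighbours overlapped. UPK3B at day 10 in ZEB2 shRNA cells (3.37 CPM) did not overlap NKX2-5 shRNA at day 10 (2.37). UPK1B was highest in ZEB2 shRNA (1.02 CPM) and WT cells (1.01) at day 2, which overlapped. WT1 was highest in WT at day 10 (1.87 CPM), and every pair of neighbours in its order overlapped.

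To compare members with each other, levels were divided by the spliced length of the canonical transcript in the GENCODE annotation. That transcript need not be the RefSeq transcript whose reads were counted. In ZEB2 shRNA cells at day 10, BNC1 held 10.4 CPM per kb, LRRN4 8.62, TCF21 7.33, SEMA3D 4.25, UPK3B 1.5, MSLN 0.619, WT1 0.103 and UPK1B 0.0820. In WT cells at day 6 the leading level was that of LRRN4, at 14.1 CPM per kb, followed by SEMA3D at 3.18, BNC1 at 2.73 and TCF21 at 2.17. WT1 reached 0.615 CPM per kb in WT cells at day 10. Per length, TCF21 thus stood closer to BNC1 than its CPM show.

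Across the 15 group means of log2(CPM + 1), which share the scaling of their libraries and follow day of differentiation, BNC1 correlated with TCF21 at r = 0.941 and with LRRN4 at 0.876, and TCF21 with LRRN4 at 0.850. SEMA3D correlated less with BNC1 (0.619) and TCF21 (0.482), and UPK1B correlated negatively with BNC1 (-0.401). These values describe the 15 groups and carry no test. Among 14678 genes with a group mean of at least 5 CPM, those most like BNC1 were TCIM (r = 0.985), HAND1 (0.972), a transcription factor gene of heart and lateral mesoderm, and LUM (0.967), the proteoglycan lumican of fibroblasts. LRRN4 was most like MEIS2 (0.981), ST8SIA1 (0.977) and LIX1 (0.977), TCF21 most like CA3 (0.978), AFAP1L2 (0.976) and NTRK2 (0.974), and SEMA3D most like PLCXD3 (0.962), DLC1 (0.936) and CBLB (0.932). For the low members the leading genes were ABCA8 (0.965), TSG1 (0.961) and GP1BB (0.955) for WT1, and MGRN1 (0.946), ADARB1 (0.939) and CCNK (0.929) for UPK3B. They were DUSP15 (0.919), ADGRG1 (0.919) and ABCA4 (0.911) for MSLN, and EGFLAM-AS4 (0.866), RFPL2 (0.858) and GSTT2B (0.855) for UPK1B.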

How the data were processed

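RNA-seq libraries of stranded total RNA (TruSeq) were mapped by the authors to hg19 (GRCh37) with TopHat2 2.0.14 and Bowtie2 2.2.1.0, with SAMtools 0.1.19.0 and edgeR also named in the submitters' processing notes. The deposited values are raw read counts per RefSeq transcript, without normalization. Of 41627 accessions 40285 (96.8%) were matched to 23189 symbols, and the row with the largest total was taken per symbol, since rows of 1 gene share reads. Of values from 1 to 10 counts, 63.2% were even, and whether both mates of a pair were counted is not given in the sources used here, so counting limits cover counting error only. In 4 of 34 libraries, replicates 1 and 2 of WT and of ZEB2 shRNA cells at day 10, the column held 1077 values more than there are accessions and did not follow them (median Spearman correlation with replicate 3 over blocks of 1000 rows at most 0.0131, against 0.984 and 0.993 for replicate 4), so they were not used.

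Differences were tested with edgeR 4.0.16 in R 4.3.3 (TMM, filterByExpr, glmQLFit, glmQLFTest) and p-values were adjusted by the Benjamini-Hochberg method across every gene in the fit. Lines were compared in a fit of the libraries of that day, days in a fit of the libraries of that line, and interactions in a fit of all 30 libraries. The SE was taken as |log2 fold change| over the root of the F statistic. A group with at most 3 counts in each library was taken to be at the limit, and folds against it are bounds. Alternatives were DESeq2 1.42.0, its size factors, no filter on low counts, 1 fit, another row per gene, a replicate block and leaving out each library. The fits were tested on simulated data. The members and lists were chosen with earlier results of these data known. All 8 members are named, with the 18 listed genes by their group counts and, for likeness, the 3 genes per member with the highest Pearson correlation over group means of log2(CPM + 1).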

Additional observations from a re-analysis of the deposited data

Results flagged for a closer look

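For 8 changes over time the difference between a knockdown and WT was itself past 5% FDR in an interaction test over 30 libraries (edgeR's quasi-likelihood test). From day 2 to day 6 these were LRRN4 in NKX2-5 shRNA cells, with a difference in log2 fold change of -4.21 (adjusted p = 3.14e-06), SEMA3D in NKX2-5 shRNA cells, at 1.23 (adjusted p = 0.000529), and SEMA3D in ZNF503 shRNA cells, at 1.95 (adjusted p = 3.01e-06). From day 6 to day 10 NKX2-5 shRNA cells differed from WT in TCF21, at 3.40 (adjusted p = 0.00272), in BNC1, at 2.63 (adjusted p = 0.000334), and in SEMA3D, at -1.43 (adjusted p = 0.000118). Over the same days ZEB2 shRNA cells differed in BNC1, at 1.84 (adjusted p = 0.0128), and in SEMA3D, at -1.14 (adjusted p = 0.00307). These differences share the WT libraries. No group held more than 2 libraries, so no group was searched for a single library that stood apart.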

How the results depend on the processing

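With DESeq2's size factors in place of TMM, 70 of 70 fold changes kept their direction and side of the threshold, as did 70 of 70 with the lowest-total row per gene (chosen after seeing the data), 69 of 70 without a filter, 67 of 70 under DESeq2's own test and 56 of 62 in 1 fit of all libraries. BNC1, UPK1B, LRRN4 and SEMA3D have only 1 row each, so the lowest-total setting used the same counts for them. Their agreement under it was all but fixed beforehand. The row of the longest transcript was not run, as no lengths of the RefSeq transcripts were at hand. Leaving out each library kept 250 of 312. It reversed WT1 in NKX2-5 shRNA against WT at day 10 (0.41 without NKX2-5 shRNA replicate 1, with the others down to -3.25 without replicate 2) and in NKX2-5 against ZEB2 shRNA at day 6 (2.76 without ZEB2 shRNA replicate 1, with the others down to -6.99 without NKX2-5 shRNA replicate 2). The cause was not tested.

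Counts of members called that changed by more than 1.5 times were as follows. At 5% FDR with no fold threshold, members against WT at day 0 numbered 0 for ZEB2 (1 called) and 1 for ZNF503 (0). At day 6 they numbered 4 for NKX2-5 (1), 1 for ZEB2 (0) and 5 for ZNF503 (1), and at day 10 they numbered 2 for NKX2-5 (0) and 3 for ZEB2 (0). Over time they numbered 3 for WT from day 0 to day 2 (1) and 3 from day 6 to day 10 (0), 3 and 2 for NKX2-5 shRNA cells from day 2 to day 6 (1) and on to day 10 (0), and 4 for ZEB2 shRNA cells from day 6 to day 10 (0). For the interactions they numbered 2 for NKX2-5 (1) and 1 for ZNF503 (0) from day 2 to day 6, and 3 for NKX2-5 (1) and 2 for ZEB2 (0) from day 6 to day 10. Between lines they numbered 5 for NKX2-5 against ZEB2 (2) and 2 for NKX2-5 against ZNF503 (0) at day 6, and 2 at day 10 (0). Smaller changes were from 2 to 3 for ZNF503 at day 2, from 4 to 5 for ZEB2 shRNA cells and 2 to 3 for ZNF503 shRNA cells from day 2 to day 6, and from 2 to 3 for ZEB2 against ZNF503 at day 6. This setting drops the fold threshold and also moves the FDR limit, from 10% at days 0 and 2 and from 1% at days 6 and 10, and the 2 changes were not separated.

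Without a filter, 2 were called for ZEB2 at day 0 and 2 for WT from day 0 to day 2, where the lowest-total row also gave 2. In 1 fit of all libraries, 2 were called for ZEB2 at day 0 and 2 in NKX2-5 shRNA cells for each change over time. DESeq2 called 2 and 1 for those changes. Leaving out 1 library gave from 0 to 1 called for NKX2-5 at day 0, 0 to 2 for ZEB2 at day 0, 1 to 2 for NKX2-5 and for ZNF503 at day 6, 0 to 1 for NKX2-5 at day 10, 1 to 3 for WT from day 0 to day 2, 0 to 1 for NKX2-5 shRNA cells from day 6 to day 10 and for its interaction with WT over these days, and 1 to 2 for NKX2-5 against ZEB2 and for ZEB2 against ZNF503 at day 6.

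Replicate numbers are shared between groups, but no label ties them to a batch, and the deviations of same-numbered libraries correlated between -0.28 and 0.40, so the numbers were not taken as pairs. A replicate block left 22 of 22 counts and 50 of 53 fold changes on their side. BNC1 in ZEB2 shRNA cells (adjusted p = 0.146) and SEMA3D in ZNF503 shRNA cells (0.07) at day 0 were lost under the block, and WT1 in ZEB2 shRNA cells at day 10 passed (0.00872). Where the groups share no numbers (NKX2-5 shRNA cells against the other lines at day 10, and WT and ZEB2 shRNA cells from day 6 to day 10) no block could be fitted. Without TMM, 108 of 120 group means moved by less than the SD between libraries, and the log2 fold change over all genes shifted by 0.18 for ZEB2 against WT at day 10, 0.17 for ZEB2 shRNA cells from day 6 to day 10, 0.15 and -0.18 for WT from day 0 to day 2 and on to day 6, -0.13 for NKX2-5 at day 2, -0.10 for ZEB2 shRNA cells from day 2 to day 6 and -0.15 for NKX2-5 against ZEB2 at day 10. Of 24 genes named for likeness, 2 stayed among the 3 most alike by Spearman correlation. At 0.102 to 0.326 CPM for 3 counts at day 10, differences in WT1, MSLN and UPK1B near that level were not detectable.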
